A study of Mus musculus with 11 samples.

Results

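*Wfs1* and *Cisd2*, the 2 genes whose loss causes Wolfram syndrome, were followed library by library in whole cochleae of *Atf6*+/+ and *Atf6*-/- mice. They were taken by gene symbol, 2 of the 18667 genes listed, and both passed the filter on low values that left 16169 genes. The pair was selected on the FPKM of these same libraries, with the difference between the genotypes known, so that difference is given for both genes as a description without a test. RNA came from 5 *Atf6*+/+ cochleae (WT1 to WT5) and 6 *Atf6*-/- cochleae (ATF6KO1 to ATF6KO6) of mice 2 months of age, 1 library per cochlea. All mice were on the C57BL/6J background, which carries the *Cdh23* ahl allele of age-related hearing loss in both groups. In the *Atf6*-/- mice a stop codon placed in exon 4 ends the protein early in every cell of the body, so the cochlea is not the only organ that lacks ATF6. The controls were littermates by the study's methods, but the labels tie no library to a mouse, a litter or a sex. Whether any mouse gave both of its cochleae is not stated, and the libraries were treated as independent. Errors therefore describe the spread between these libraries.

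Wolfram syndrome combines diabetes, optic atrophy and hearing loss. *Wfs1* encodes wolframin, a glycoprotein of the endoplasmic reticulum (ER) membrane that takes part in calcium handling and in the unfolded protein response (UPR), the program that cells start when misfolded proteins gather in the ER. Wolframin is also known to bring ATF6, the stress-activated transcription factor deleted in these mice, to the ubiquitin ligase HRD1 for degradation, and dominant *WFS1* alleles cause low-frequency hearing loss. *Cisd2* encodes a CDGSH iron-sulfur protein of the ER and of its contacts with mitochondria, and recessive alleles cause the second form of the syndrome. In the cochlea, wolframin is known from hair cells, supporting cells, the stria vascularis and spiral ganglion neurons.

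The bases just upstream of both genes are shown because ATF6 acts by binding DNA at promoters. Each stretch is the 250 bases before the start of the RefSeq gene model in GRCm38.p6, read 5′ to 3′ on the minus strand, where both genes lie, at chr5:36988983-36989232 for *Wfs1* and at chr3:135423434-135423683 for *Cisd2*. Capitals mark the only match to a searched motif.
Wfs1: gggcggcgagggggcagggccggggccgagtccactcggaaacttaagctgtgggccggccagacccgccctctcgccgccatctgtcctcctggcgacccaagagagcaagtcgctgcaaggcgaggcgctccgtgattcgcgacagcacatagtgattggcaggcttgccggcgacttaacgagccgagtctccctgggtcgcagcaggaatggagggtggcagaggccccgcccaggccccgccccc
Cisd2: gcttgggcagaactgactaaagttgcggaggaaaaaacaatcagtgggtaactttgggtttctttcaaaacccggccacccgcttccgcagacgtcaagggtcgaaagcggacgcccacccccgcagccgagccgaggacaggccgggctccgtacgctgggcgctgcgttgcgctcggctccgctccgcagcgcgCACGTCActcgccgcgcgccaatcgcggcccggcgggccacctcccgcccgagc
4 motifs were searched on both strands: the ER stress response element ERSE (CCAAT and CCACG with 9 bases between them), ERSE-II (ATTGG and CCACG with 1 base between them), the core TGACGTG of ATF6 and CREB-type sites, and TGATGNAA, the element read by ATF4 with CHOP. The *Wfs1* stretch held none of them. The *Cisd2* stretch held TGACGTG once, as CACGTCA on the printed strand, from 54 to 48 bases before the start. Of 32851 promoters of 27025 genes, 542 (1.65%) held TGACGTG, 1134 (3.45%) TGATGNAA, 37 (0.113%) ERSE and 10 (0.0304%) ERSE-II. G and C made up 69.6% of the *Wfs1* and 67.6% of the *Cisd2* stretch, against a median of 52.4%. A match describes letters in this window only.

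Values are deposited FPKM, fragment numbers scaled by transcript length and by the size of the library, which sum to between 462005 and 537926 per library. No counts of reads were used, so only the nominal depth in the study's methods is known per library and errors come from the spread between libraries alone. In a whole organ, fewer cells of a type and less RNA per cell cannot be told apart. The targeted gene *Atf6* had between 8.25 and 10.56 FPKM in *Atf6*+/+ and between 3.83 and 4.59 FPKM in *Atf6*-/- libraries, with a log2 difference of -1.13 (standard error 0.0837, limma adjusted p = 5.17e-05, Benjamini-Hochberg over 16169 genes). No library went against its label. The library WT4 stood apart from the other *Atf6*+/+ libraries in genes of the stria vascularis, the epithelium that makes endolymph. *Kcne1*, a potassium channel subunit of its marginal cells, had 0.1 FPKM in WT4 and at least 14.1 in the other *Atf6*+/+ libraries, and the melanocyte gene *Dct* had 0.84 against at least 56.8 FPKM. *Cisd2* is therefore given without WT4 as well. The summed level of 7 strial markers ran from 67.4 to 231 FPKM in *Atf6*+/+ and from 116 to 274 FPKM in *Atf6*-/- libraries.

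*Wfs1* was higher in *Atf6*-/- cochleae by 12.6% of its *Atf6*+/+ mean, with a small overlap between the groups. In WT1 to WT5 its level was 32.2, 34.78, 31.65, 32.44 and 30.58 FPKM. In ATF6KO1 to ATF6KO6 it was 37.39, 37.76, 35.94, 36.45, 36.37 and 34.44 FPKM, with a median of 36.41. The overlap came from WT2, the highest *Atf6*+/+ library, which lay above ATF6KO6, the lowest *Atf6*-/- library, and 5 of 6 *Atf6*-/- libraries lay above every *Atf6*+/+ library. Means were 32.3 ± 1.55 FPKM (SD, n = 5) and 36.4 ± 1.17 FPKM (SD, n = 6), a log2 difference of 0.17 with a standard error of 0.0422. Every *Atf6*-/- library lay above the *Atf6*+/+ mean. Of the 16169 genes tested, 1.25% had groups without overlap, 0.643% with all *Atf6*-/- libraries higher and 0.606% with all lower. Because this contrast chose the gene, nothing is read from the comparison.

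*Cisd2* had nearly the same level in both genotypes. In WT1 to WT5 its level was 18.32, 17.68, 16.95, 13.9 and 17.48 FPKM. In ATF6KO1 to ATF6KO6 it was 16.84, 17.55, 17.25, 16.23, 17.66 and 17.97 FPKM. The 6 *Atf6*-/- values all lay inside the range of the *Atf6*+/+ values, and the lowest value of all was that of WT4, the library poor in strial genes. Means were 16.9 ± 1.73 FPKM (SD, n = 5) and 17.2 ± 0.63 FPKM (SD, n = 6), with a log2 difference of 0.04 (standard error 0.067), less than its own error. Without WT4 the *Atf6*+/+ mean was 17.6 ± 0.566 FPKM (SD, n = 4) and the log2 difference was -0.03. The sign of the *Cisd2* difference thus changed on leaving out 1 library.

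**Figure D1:**
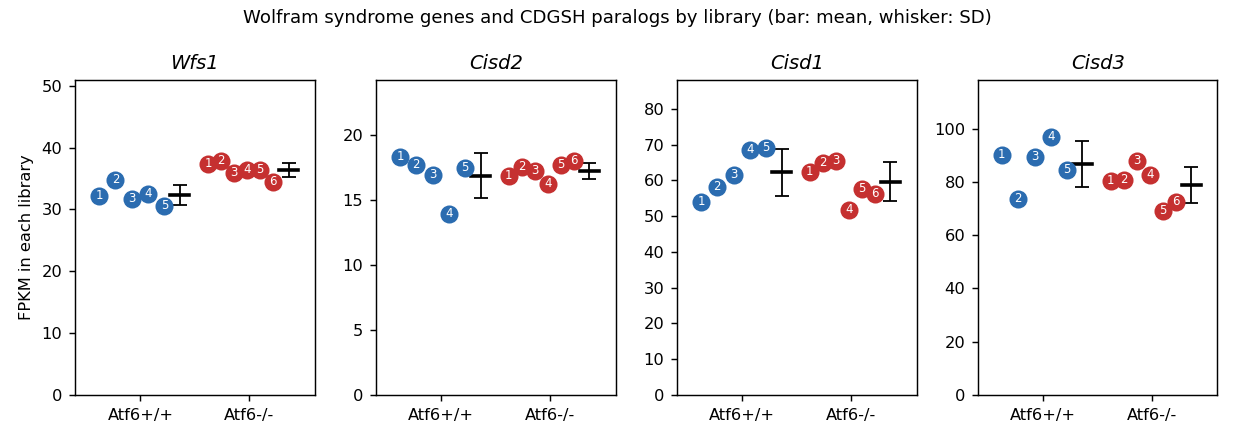
FPKM of *Wfs1*, *Cisd2* and the related *Cisd1* and *Cisd3* in each library (numbered points: blue *Atf6*+/+, red *Atf6*-/-, bar and whisker: mean and SD, every vertical axis from 0). Of the 6 *Atf6*-/- points of *Wfs1*, 5 lie above all *Atf6*+/+ points, while *Cisd2* overlaps fully and WT4 is its lowest point at 13.9 FPKM.

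Both genes were well above background and were steady across libraries. *Wfs1* lay between the 81.1 and 85.1 percentiles of the 16169 genes in each library, and *Cisd2* between the 63.1 and 69.9 percentiles. The coefficient of variation of *Wfs1* was 4.78% in *Atf6*+/+ and 3.22% in *Atf6*-/-. That of *Cisd2* was 10.3% and 3.65%, the first of which includes WT4. On the FPKM scale, which is per length, *Wfs1* exceeded *Cisd2* in 11 of 11 libraries. Their ratio was 1.94 ± 0.24 (SD, n = 5) in *Atf6*+/+ and 2.11 ± 0.121 (SD, n = 6) in *Atf6*-/-, with a highest value of 2.33 in WT4, and 1.84 ± 0.103 (SD, n = 4) in *Atf6*+/+ without WT4.

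Because the contrast between genotypes chose *Wfs1* and the alternatives reuse the same libraries, an unchanged sign is no support. The log2 difference of *Wfs1* lay between 0.13 and 0.23 under the alternatives tried. Its lowest value, 0.13, was obtained with a bone marrow score as a covariate and its highest, 0.23, after rescaling each library to TPM (the same values scaled to one common sum in every library). The same rescaling put the median over all genes at 0.04 in place of -0.01. In TPM the range was 56.85 to 73.28 in *Atf6*+/+ and 71.53 to 78.98 in *Atf6*-/-, so the groups overlapped on that scale too, then through ATF6KO3 and not ATF6KO6. *Cisd2* was negative in 2 of 19 alternatives, without WT4 and with the bone marrow covariate (-0.0032). Its highest value was 0.09, in TPM.

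**Figure D2:**
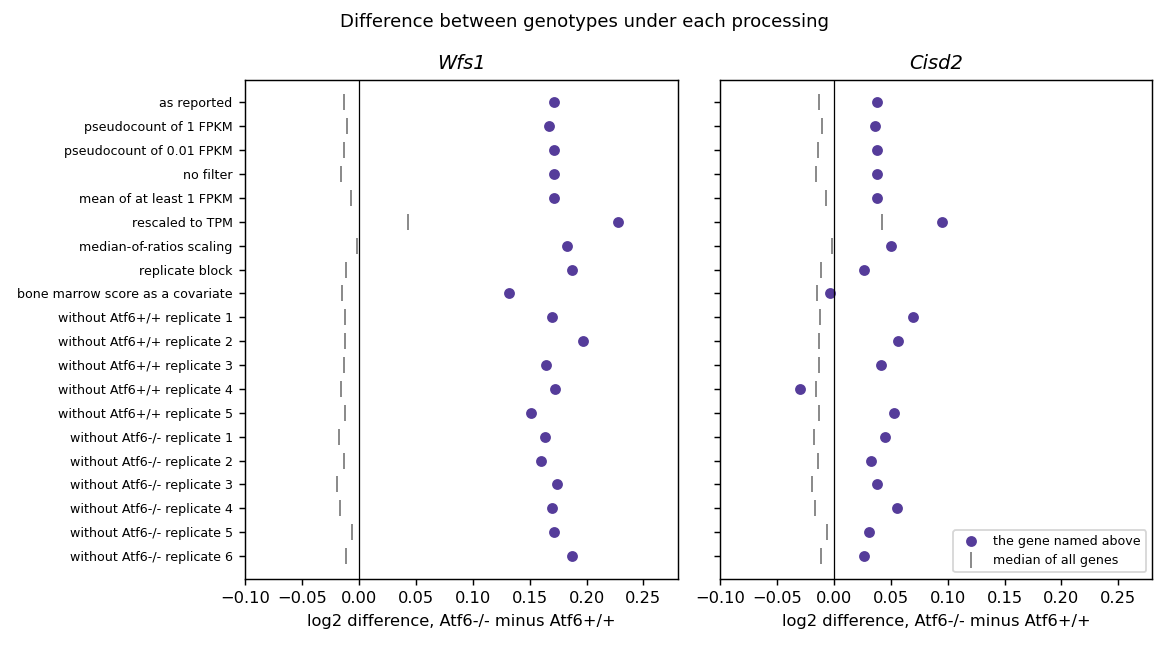
Log2 difference (*Atf6*-/- minus *Atf6*+/+, horizontal axis) of *Wfs1* and *Cisd2* under each way of processing (one line each), with grey ticks at the median of all genes under the same processing. *Wfs1* lies between 0.13 and 0.23 and *Cisd2* near 0, below it without WT4 or with the bone marrow covariate.

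Blood cell genes moved with genotype beside these differences. Marrow lies next to the otic capsule, and its RNA can enter a whole cochlea library. All 10 neutrophil markers were lower in *Atf6*-/- by their means, 6 of them past the unadjusted rule (an unadjusted limma p up to 0.05 and a log2 difference larger than 0.05 in either direction), as were 5 of 9 erythroid and 3 of 8 B cell markers. That rule was passed by 9.85% of all genes tested, 4.48% higher and 5.37% lower. The summed neutrophil level ran from 283 to 3530 FPKM in *Atf6*+/+ and from 114 to 1310 FPKM in *Atf6*-/-, the erythroid level from 3370 to 32100 and from 1960 to 6480, and the B cell level from 9.35 to 34.2 and from 7.31 to 15.2. No marker of these lists was at 0 in every library. The bone marrow score, the mean of the scores of these lists, had a log2 difference of -1.15 between genotypes. Of the *Atf6*-/- libraries, 6 of 6 lay below its *Atf6*+/+ mean and 4 below every *Atf6*+/+ library. Genotype and marrow are thus partly confounded, and a call lost with this covariate does not tell them apart. With the score as a covariate, the log2 difference of *Wfs1* was 0.13 in place of 0.17. Hair cell markers were positive for 10 of 10, with 2 past the rule, and their sum ran from 56.7 to 155 FPKM in *Atf6*+/+ and from 91.6 to 180 FPKM in *Atf6*-/-. Supporting cell markers passed it for 2 of 7 and strial markers for 1 of 7, all higher, Schwann cell markers for 1 of 5, higher, and those of spiral ganglion neurons, macrophages, bone and skeletal muscle for none. Log2 differences were negative for 6 of 6 bone, 6 of 7 neuron, 5 of 6 macrophage and 3 of 5 skeletal muscle markers. They were positive for 6 of 7 supporting cell, 6 of 7 strial and 4 of 5 Schwann cell markers. The part of hair cells and supporting cells in the *Wfs1* difference was not tested.

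Among libraries of the same genotype, no relation between *Wfs1* and *Cisd2* passed the test. After each genotype mean had been subtracted, the Pearson correlation of their log2 values over 11 libraries was -0.0735 (exact two-sided permutation within genotype, p = 0.811, adjusted p = 0.845 over 9 relations). Spearman's rho was -0.209 (exact permutation p = 0.644, adjusted p = 0.725), and r was -0.0998 without WT4 and ATF6KO4. With 1 library left out, r ran from -0.352 (without WT2) to 0.0305 (without WT5). The value depended on the scaling, since r was 0.467 in TPM (exact permutation p = 0.308). In WT4 *Wfs1* was near its group's mean (32.44 FPKM) while *Cisd2* was at its lowest.

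*Cisd2* followed the strial score, the mean log2 value of 7 strial markers, and moved against the score of spiral ganglion neurons, but neither relation passed adjustment over 9 relations. With the strial score r was 0.884 (exact permutation p = 0.0136, adjusted p = 0.0741) and rho 0.736 (exact permutation p = 0.0151, adjusted p = 0.136). Without WT4 and ATF6KO2, the 2 libraries farthest from the median of the centred strial score, r was 0.811 (exact permutation p = 0.0115), and among the 6 *Atf6*-/- libraries alone it was 0.663. Without WT4 alone it was 0.564 (exact permutation p = 0.137), so the unadjusted call depended on which libraries were left out. With the neuron score r was -0.8 (exact permutation p = 0.0165, adjusted p = 0.0741) and rho -0.736 (exact permutation p = 0.0403, adjusted p = 0.182). Without WT3 and WT4, the 2 libraries farthest from the median of the centred neuron score, r was -0.175 (exact permutation p = 0.692). Without WT4 alone it was -0.462 and without WT3 alone -0.896 (exact permutation p = 0.188 and 0.0819). With the hair cell score r of *Cisd2* was 0.593 and with the bone marrow score -0.25 (exact permutation p = 0.164 and 0.553, adjusted p = 0.445 and 0.829).

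*Wfs1* was related to none of the 4 scores past an unadjusted exact p of 0.05. Its r was -0.459 with the bone marrow score, -0.315 with the strial, 0.105 with the hair cell and 0.114 with the neuron score (exact permutation p = 0.198, 0.384, 0.845 and 0.8). The adjusted values were 0.445, 0.692, 0.845 and 0.845 by the same exact permutation. Spearman's rho was -0.364, -0.564, 0.0818 and 0.336 (exact permutation p = 0.291, 0.0928, 0.851 and 0.423, adjusted p = 0.524, 0.255, 0.851 and 0.587). For *Cisd2*, rho was 0.555 with the hair cell and -0.3 with the bone marrow score (exact permutation p = 0.113 and 0.456, adjusted p = 0.255 and 0.587). Leaving out the 2 libraries farthest from the median of each centred score gave *Wfs1* an r of -0.388 with marrow, -0.401 with the stria, 0.213 with hair cells and 0.692 with neurons, the last with an exact permutation p of 0.0169. It gave *Cisd2* an r of 0.101 with hair cells and of -0.634 with marrow. With 1 library left out, r of *Wfs1* ran from -0.663 to -0.253 with the bone marrow score. It ran from -0.181 to 0.271 with the hair cell and from -0.167 to 0.502 with the neuron score.

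**Figure D3:**
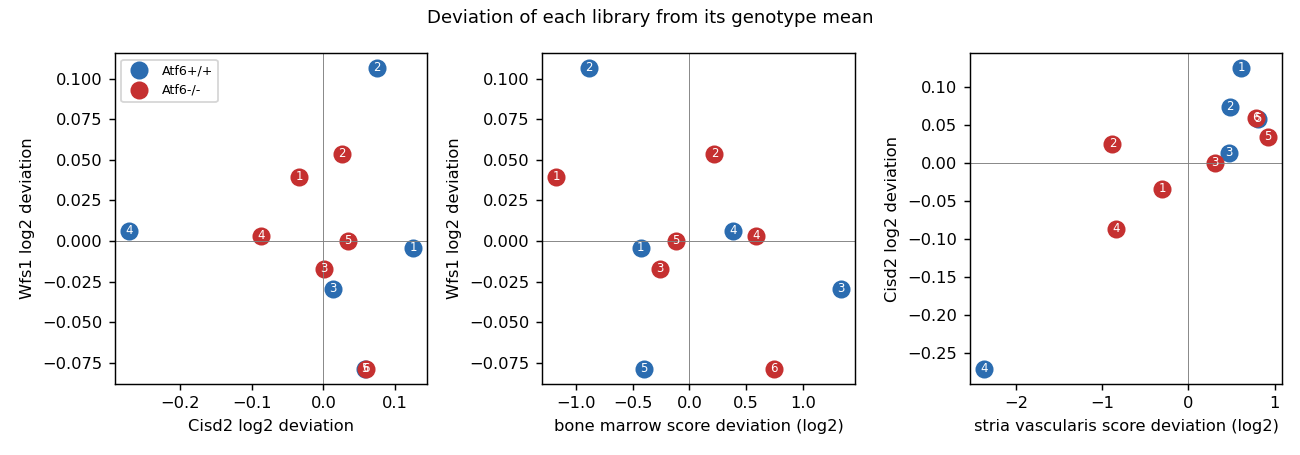
Deviation of each library from its genotype mean, in log2 units, for *Wfs1* against *Cisd2* (left), *Wfs1* against the bone marrow score (middle) and *Cisd2* against the stria vascularis score (right), with blue points for *Atf6*+/+, red points for *Atf6*-/- and the replicate number in each (WT5 and ATF6KO6 nearly coincide on the left and on the right). WT4 is far out at the lower left of the right panel, at -0.27 for *Cisd2* and -2.37 for the stria.

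The genes whose within-genotype pattern was most like that of *Wfs1*, among 13610 genes averaging 1 FPKM or more, were *Nup133* (r = 0.951 over 11 libraries), *Cc2d2a* (0.915), *Eif3c* (0.881), *Mtrex* (0.876) and *Emc1* (0.856). *Nup133* encodes a nuclear pore subunit, *Cc2d2a* a protein of the ciliary base, *Eif3c* a translation initiation factor, *Mtrex* an RNA helicase and *Emc1* a subunit of the ER membrane complex that inserts membrane proteins. Closest to *Cisd2* were *Fam120c* (0.964), *Zfp24* (0.964), *Bdp1* (0.951), *Tbc1d8b* (0.949) and *Mmut* (0.946), of which *Bdp1* encodes a subunit of transcription factor TFIIIB and *Mmut* mitochondrial methylmalonyl-CoA mutase. Each list holds the highest of 13610 values and gets no test. The log2 differences between genotypes of these 10 genes ran from -0.04 for *Mtrex* to 0.15 for *Fam120c*, and none passed the unadjusted rule.

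*Cisd2* has a pair of paralogs in the mouse, *Cisd1*, which encodes mitoNEET of the outer mitochondrial membrane, and *Cisd3*, which encodes a protein of the mitochondrial matrix. Both were above *Cisd2* in 11 of 11 libraries, and the order *Cisd3*, *Cisd1*, *Wfs1*, *Cisd2*, from highest to lowest FPKM, held in each of the 11. The *Atf6*+/+ mean of *Cisd1* was 62.2 ± 6.6 FPKM (SD, n = 5) and its *Atf6*-/- mean 59.7 ± 5.35 FPKM (SD, n = 6), with a log2 difference of -0.06 (limma adjusted p = 0.818, Benjamini-Hochberg). For *Cisd3* the means were 86.8 ± 8.65 FPKM (SD, n = 5) and 78.9 ± 6.78 FPKM (SD, n = 6), with a log2 difference of -0.14 (limma adjusted p = 0.559, Benjamini-Hochberg). Both differences depended on single libraries. That of *Cisd1* ran from -0.11 (without WT1) to -0.02 (without WT4, WT5 or ATF6KO4). That of *Cisd3* ran from -0.20 without WT2 to -0.10 without WT4, and it passed the unadjusted rule of limma without WT2 or without ATF6KO3. WT4, the lowest library for *Cisd2*, was the highest for *Cisd3* at 96.73 FPKM and among the highest for *Cisd1* at 68.51 FPKM. The ratio of *Cisd3* to *Cisd2* was accordingly widest in WT4, at 6.96, and ran from 3.92 to 5.08 in the *Atf6*-/- libraries.

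Of *Cisd1*, *Cisd3* and the genes whose products are known to bind wolframin or CISD2, to sit at contacts of the ER with mitochondria, or to cause other syndromes of hearing loss with optic atrophy or diabetes, 38 were tested besides the Wolfram genes and *Atf6*. By the unadjusted rule 3 were higher and 3 lower, 15.8% in all, against 9.85% of all genes tested, with a median log2 difference of -0.0016 against -0.01. None had an adjusted p under 0.05 by limma, a level reached by 11 (0.068%) of all genes. Of 9 genes around wolframin, *Syvn1*, which encodes HRD1, was higher by 0.13 on the log2 scale (27.9 ± 2.15 FPKM, n = 5, and 30.5 ± 1.37 FPKM, n = 6, limma adjusted p = 0.48, Benjamini-Hochberg). The call on *Syvn1* was lost on leaving out any of 5 libraries (WT1, WT2, WT5, ATF6KO3 or ATF6KO6). Of 5 genes around CISD2, 0 passed the rule, although *Itpr1*, the calcium release channel that both proteins are reported to bind, had a log2 difference of 0.34 (standard error 0.175), which was 0.18 (standard error 0.14) without WT4, its lowest library at 10.5 FPKM.

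Of 17 contact site genes, *Pacs2*, a sorting protein of these contacts, was higher by 0.14 on the log2 scale (62.9 ± 4.44 FPKM, n = 5, and 69.5 ± 4.05 FPKM, n = 6). *Bcap31*, an ER membrane chaperone, was lower by 0.13 (98.8 ± 3.42 and 90.7 ± 5.64 FPKM), and *Mcu*, the pore of the mitochondrial calcium uniporter, was lower by 0.13 (10.7 ± 0.822 and 9.73 ± 0.397 FPKM). Adjusted p-values by limma were 0.462, 0.457 and 0.505. The call on *Mcu* was lost without any 1 of 7 libraries and under 4 of 8 other alternatives, that on *Pacs2* without WT3, WT5 or ATF6KO6, and that on *Bcap31* without WT5 or ATF6KO6. Of 9 genes of related syndromes, the nucleoside transporter gene *Slc29a3* passed, at 7.1 ± 0.757 FPKM (n = 5) and 7.94 ± 0.46 FPKM (n = 6, limma adjusted p = 0.505), a call lost without any 1 of 9 libraries. These counts depended on single libraries. The 3 higher genes became 0 without WT5 or ATF6KO6 and 1 without WT2 or WT3, and the 3 lower genes became 1 without WT3 or ATF6KO6. With the bone marrow covariate 1 was higher and 1 lower, and in TPM 6 were higher and 0 lower.

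*Wfs1* is itself a gene of the UPR, and the targets of the 3 UPR factors were counted beside it. Of 20 ATF4 target genes, 13 were higher by the unadjusted rule and 0 lower, against 4.48% and 5.37% of all genes, with a median log2 difference of 0.35 against -0.01 for all genes. Among them *Atf5*, a stress-induced transcription factor, and *Shmt2*, a serine-folate enzyme of mitochondria, had log2 differences of 0.87 and 0.38 and were the 2 with an adjusted p under 0.05 (limma adjusted p = 0.000441 and 0.0482, Benjamini-Hochberg), a count of 1 or 2 when 1 library was left out. Of 12 XBP1s targets, 5 were higher and 0 lower, with a median of 0.16 that was 0.10 without WT1 or WT2. They were *Dnajb9*, *Sec61a1*, *Sec24d*, *Sec23b* and *Rpn1*, with log2 differences from 0.16 to 0.29. Of 15 ATF6 targets, the ER chaperone gene *Hyou1* and the degradation genes *Herpud1* and *Syvn1* were higher (0.22, 0.19 and 0.13), the chaperone gene *Hsp90b1* and the derlin gene *Derl3* were lower (-0.20 and -0.47, limma adjusted p = 0.491 and 0.415), and the median was 0.05, or 0.0075 to 0.10 with 1 library left out. In TPM 6 of them were higher and 1 lower. The call on *Hsp90b1* was lost without any 1 of 6 libraries and in TPM. With the bone marrow covariate 10 ATF4 targets were higher and 1 lower, 3 XBP1s targets were higher and 0 lower, and 2 ATF6 targets were higher and 0 lower, with the calls on *Herpud1*, *Hsp90b1*, *Derl3*, *Dnajb9* and *Sec24d* among those lost. The lists were chosen with earlier results of these data known and are no independent evidence of a direction.

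A medical panel of 356 genes of hereditary hearing loss holds both Wolfram genes. Of its symbols 349 matched, and 330 genes were tested. In mean level *Wfs1* ranked 56th and *Cisd2* 111th of 330. Of the 300 panel genes averaging 1 FPKM or more, *Wfs1* had the 70th highest log2 difference and *Cisd2* the 165th, ranks that describe the contrast used to choose the pair. The standard error of *Wfs1* was the third lowest of 300, against a median of 0.101. Apart from the Wolfram genes, 27 of 328 panel genes (8.23%) were higher and 9 (2.74%) lower by the unadjusted rule, against 4.48% and 5.37% of all genes, 0 had an adjusted p under 0.05 by limma with 36 at an unadjusted p of at most 0.05, and the median log2 difference was 0.05.

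The 5 largest positive and 5 largest negative differences past that rule were taken from panel genes averaging 1 FPKM or more. *Slc26a5*, the outer hair cell motor prestin, went from 0.7 to 1.93 FPKM, *Ceacam16*, a tectorial membrane protein, from 296 to 541 FPKM, and *Cldn14*, *Ildr1* and *Tmprss3*, which encode 2 tight junction proteins and a serine protease, from 5.45 to 8.34, from 6.37 to 9.79 and from 13.4 to 20.3 FPKM in the group means. Among the largest negative ones, *Gpx1*, which encodes glutathione peroxidase, went from 143 to 114 FPKM and *Cdkn2d*, a cell cycle inhibitor gene, from 47.6 to 40.3 FPKM. *Pet100*, *Ripor2* and *Tmprss5* had log2 differences of -0.25, -0.24 and -0.17. Without WT4 the calls on *Slc26a5*, *Ildr1*, *Pet100*, *Ripor2* and *Tmprss5* were lost, with log2 differences of 0.93, 0.46, -0.22, -0.25 and -0.10. These 5 calls were lost without any 1 of 6, 6, 6, 7 and 4 libraries in turn, and the other 5 were kept whichever library was left out. Beside the 0.17 of *Wfs1*, the log2 differences of the 5 highest ran from 0.62 for *Tmprss3* to 1.2 for *Slc26a5*, with standard errors from 0.206 to 0.492. With the bone marrow covariate, which itself moved with genotype, all 10 calls were lost. The log2 differences of *Pet100* and *Tmprss5* stayed at -0.26 and -0.17 with larger standard errors (0.139 and 0.0982). Those of the 5 highest came to between 0.16 (*Ildr1*) and 0.59 (*Slc26a5*). Under that covariate 5 panel genes (1.52%) were higher and 3 (0.915%) lower, against 2.03% and 3.43% of all genes. The 27 became 14 without WT3, 15 without ATF6KO1, 16 without ATF6KO6, 17 without WT4 or ATF6KO4 and 44 without WT1, and the 9 became 5 without ATF6KO1, ATF6KO5 or ATF6KO6.

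**Figure D4:**
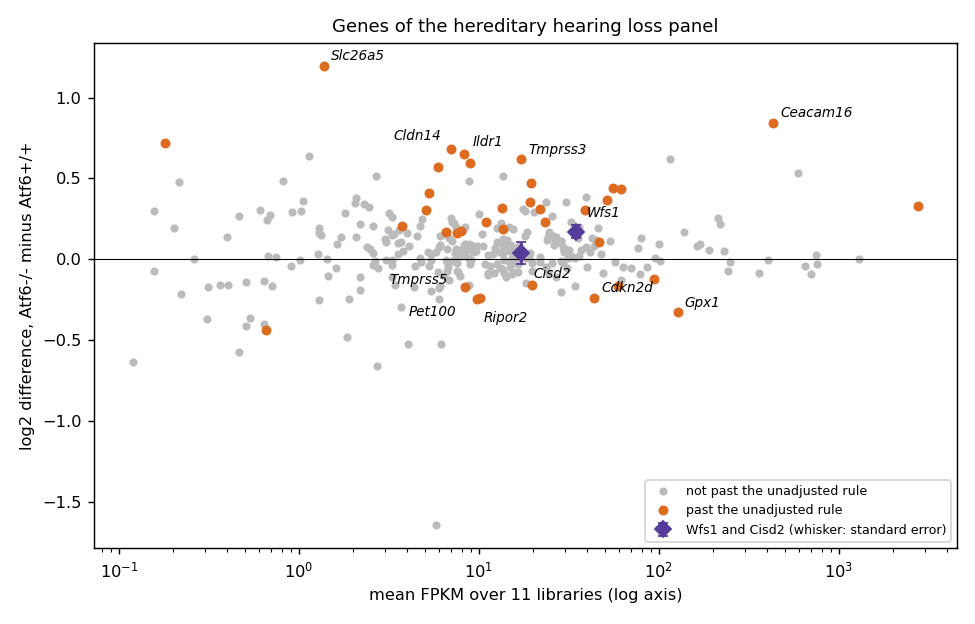
Log2 difference (*Atf6*-/- minus *Atf6*+/+) against the mean FPKM over 11 libraries (log axis) for the panel genes tested, with those past the unadjusted rule in orange and *Wfs1* and *Cisd2* as purple diamonds (whisker: standard error, not coded by the rule). *Wfs1* at 0.17 lies below the highest panel genes, such as *Slc26a5* at 1.2, and *Cisd2* lies at 0.04.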

How the data were processed

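RNA was measured by RNA-Seq in 5 *Atf6*+/+ and 6 *Atf6*-/- whole cochleae, as stranded mRNA libraries on the DNBSEQ platform. The submitters' processing notes name HISAT2 2.0.4, RSEM 1.2.12, DESeq2 1.4.5 and the build GRCm39. The authors deposited FPKM values per gene with 2 decimals, named by column for each library, and the column headers name no further scaling. No counts entered the analysis, and only a nominal depth, in the study's methods, is known.

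FPKM were joined by NCBI gene identifier and transformed as log2(FPKM + 0.1), so that fold changes of low genes are understated. Genes averaging 0.1 FPKM or more entered a limma model (version 3.58.1 under R 4.3.3) with genotype as its only term, a trend of variance on mean, two-sided tests and Benjamini-Hochberg adjustment over all genes tested. The unadjusted rule (p of at most 0.05, absolute log2 difference above 0.05) follows the study. Correlations used values centred on each genotype and exact permutation of libraries within genotype. The members and gene lists were chosen with earlier results of these data known. Named genes are the Wolfram genes, *Atf6*, *Cisd1*, *Cisd3*, list genes past the unadjusted rule, the 5 highest and 5 lowest such panel genes averaging 1 FPKM or more, and the 5 genes most like each member. Of the target lists, those past the rule were counted and only part of them named. One gene counted among those around wolframin is not reported here by name. *Itpr1* was named after its values were seen, as were the marker genes *Kcne1* and *Dct*. The fit was checked on simulated data. Alternatives were other pseudocounts, filters and scalings, a replicate block, a bone marrow covariate and leaving out each library. Promoters came from RefSeq (GRCm38.p6), not the authors' build. The rest was done in Python 3.11.15 (scipy 1.17.1, pandas 2.3.3, numpy 2.4.6, matplotlib 3.10.9). The authors' own comparisons were not used.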

Additional observations from a re-analysis of the deposited data

Results flagged for a closer look

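In groups of 4 to 10 libraries, a library was singled out where its gap to the nearest other library took up an unusually large part of the group's range (Dixon's 95% critical value). Chance alone does this in about 1 of 20 groups, and 3 of 86 groups of 43 named genes met it. *Tmprss5* was far higher in WT4 (10.85 FPKM) than in the other *Atf6*+/+ libraries, *Ripor2* was lower in ATF6KO5 (8.03 FPKM) and *Slc7a5* higher in ATF6KO5 (66.65 FPKM) than in the other *Atf6*-/- libraries. Neither Wolfram gene was singled out in either group. *Cisd2* in the *Atf6*+/+ group came close, since the gap between WT4, the lowest, and the next library took up 0.69 of the range.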

How the results depend on the processing

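When 1 library was left out, the log2 difference of *Wfs1* ran from 0.15 to 0.20 and that of *Cisd2* from -0.03 to 0.07. The replicate numbers did not pair the libraries (same-number correlations 0.147, -0.207, -0.305, 0.213 and -0.034). ATF6KO6 has no *Atf6*+/+ library of its number, so with a replicate block it adds nothing to the difference between genotypes. With the replicate block, *Wfs1* had 0.19 and *Cisd2* 0.03, 4 genes had an adjusted p under 0.05 by limma in place of 11, 420 in place of 724 genes were higher by the unadjusted rule, 16 panel genes were higher and 5 lower, of the 38 genes around the Wolfram proteins 0 were higher and 0 lower, and of the ATF6 targets 2 were higher and 1 lower. With the bone marrow covariate the adjusted count was 6, 328 genes were higher and 554 in place of 868 lower, with 5 and 3 panel genes and 1 and 1 of the 38. In TPM 1389 were higher and 439 lower, with 44 and 3 panel genes and 6 and 0 of the 38, and *Cisd2* related to the neuron score at -0.468 (exact permutation p = 0.356). Leaving out 1 library gave 8 to 13 adjusted calls, 524 to 871 higher and 620 to 994 lower genes, 14 to 44 higher and 5 to 11 lower panel genes, and 0 to 3 higher and 1 to 4 lower of the 38. It moved r of *Cisd2* from 0.564 to 0.957 with the strial and from -0.896 to -0.462 with the neuron score (unadjusted exact permutation p = 0.0819 without WT3 and 0.188 without WT4), and r of *Wfs1* with the strial score from -0.608 to -0.206 (-0.503 without WT4, exact permutation p = 0.0497). The causes of these changes were not tested. Of the values of the other named genes under the alternatives, the genes most like each Wolfram gene left out, 667 kept their direction and side of the unadjusted rule, 110 fell short of it and 2 newly passed it (*Cisd3* without WT2 or ATF6KO3), and 0 of these changed sign. Without counts the precision of single FPKM values is not known.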
